A study of Arabidopsis thaliana with 27 samples.

Results

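UGT76B1 (AT3G11340), a glucosyltransferase gene of Arabidopsis thaliana, was followed across 27 one-colour arrays of infected leaves. It was chosen by name: 1 probe of the array carries it in the platform annotation, and it is 1 of the 181 genes that the annotation names. The study compared plants that lack the transcription factors CBP60g and CBP60h (the latter also called SARD1), the defence regulator PAD4, or all of these. Values are log2 brightness, with base 2 read from the range of the deposited values, so that a difference of 1 stands for a doubling if that reading is right.

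All plants were 4 weeks old, and every array held leaf RNA from plants infiltrated with bacteria; no group without bacteria is among the arrays. The genotypes were the wild type Col-0, the mutant cbp60h, the mutant cbp60g,cbp60h double (below, the double mutant), pad4-1, and the mutant cbp60g,cbp60h,pad4 triple (below, the triple mutant). The bacteria were either hrcC, a strain of Pseudomonas syringae pv. tomato DC3000 that cannot assemble the type III secretion system that carries effectors into plant cells, or Psm, given in the labels as Pseudomonas syringae ES4326, which has that system. Harvest at 9 h after hrcC gave 3 arrays of cbp60h and 2 arrays of every other genotype. Harvest at 24 h after Psm gave 3 arrays of every genotype but cbp60h. A further 1 array of each of these 4 genotypes was taken at 24 h after hrcC. The labels number 3 experiments, called sets: hrcC at 9 h was sampled in sets 1 and 2 (cbp60h also in set 3), hrcC at 24 h in set 3, and Psm in all 3 sets. Leaves of several plants were pooled for each array, and the labels name no allele of cbp60g or cbp60h.

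Salicylic acid is the plant hormone that drives much of the leaf's defence against biotrophic bacteria, and its synthesis is switched on after infection. CBP60g and CBP60h are transcription factors that turn on genes of salicylic acid synthesis, and PAD4 is a lipase-like protein that, with EDS1, feeds the same pathway. UGT76B1 moves glucose onto salicylic acid, onto isoleucic acid and onto N-hydroxypipecolic acid, another defence signal, which takes these molecules out of their active form. In Arabidopsis, plants without UGT76B1 show raised salicylic acid responses and stronger resistance to biotrophs.

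CBP60g, CBP60h and PAD4 are not among the named probes, so no genotype could be checked. The labelled tissue was not checked either, since 0 of 9 leaf mesophyll markers and 0 of 13 markers of other cell types were measured. Array medians over all probes lay between 3.90 and 4.53. In pooled leaf tissue, fewer cells with the transcript and less transcript per cell cannot be told apart. The labels call each set an experiment and the design text speaks of biological replicates, without saying whether plants were sown separately, so p-values measure the spread between these pools of leaves.

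In Col-0, UGT76B1 as deposited lay at much the same level at 9 h after hrcC and at 24 h after Psm. The arrays at 9 h after hrcC read 5.38 in set 1 and 5.71 in set 2, a mean of 5.55 ± 0.23 (SD, n = 2). The arrays at 24 h after Psm read 5.37, 5.95 and 5.38 in sets 1 to 3, a mean of 5.57 ± 0.33 (SD, n = 3). The ranges overlapped. The 1 array at 24 h after hrcC read 6.17, above the other 5 of the wild type.

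The triple mutant had the lowest level under Psm and at 9 h after hrcC. Its Psm arrays read 2.77, 3.83 and 3.02 (3.21 ± 0.56, SD, n = 3), all below every Col-0 array. At 9 h after hrcC it read 2.75 in set 1 and 4.73 in set 2 (3.74 ± 1.40, SD, n = 2), both below the Col-0 pair, but with a gap between the sets that was wider than in any other group. At 24 h after hrcC its array read 4.12.

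The double mutant lay between. Under Psm it read 4.93, 5.33 and 4.74 (4.998 ± 0.30, SD, n = 3), each below the lowest Col-0 array of that treatment. At 9 h after hrcC it read 3.55 and 5.005 (4.28 ± 1.03, SD, n = 2), and at 24 h after hrcC 3.86, the lowest of the 4 arrays at that time.

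In pad4-1 the Psm arrays read 5.84, 5.43 and 5.62 (5.63 ± 0.21, SD, n = 3) and overlapped with Col-0. At 9 h after hrcC the mutant read 4.31 and 5.57 (4.94 ± 0.89, SD, n = 2), and at 24 h after hrcC 5.13. The set 2 array of pad4-1 at 9 h lay within the Col-0 range, and the set 1 array did not.

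In cbp60h, which was sampled at 9 h after hrcC only, the arrays read 6.23, 6.50 and 6.35 (6.36 ± 0.13, SD, n = 3). All of them exceeded every other array of UGT76B1, including the Col-0 pair of the same treatment.

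**Figure D1:**
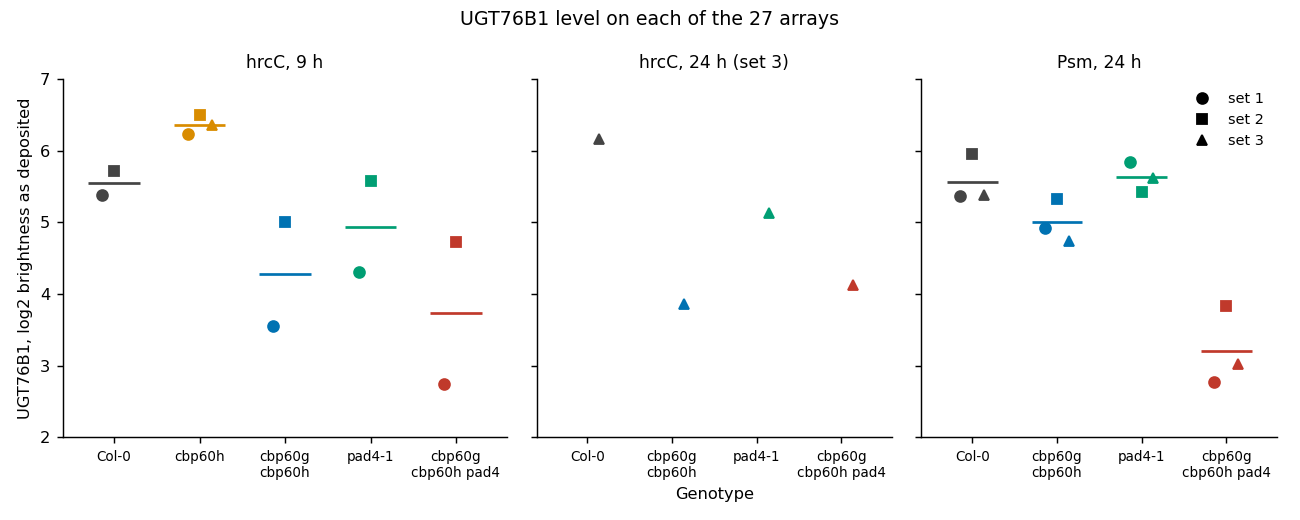
UGT76B1 on each of the 27 arrays, as log2 brightness (vertical axis), by genotype (horizontal axis) and treatment (panels); symbols give the set and bars the group means. The 3 Psm arrays of the triple mutant lie between 2.77 and 3.83, below all Col-0 arrays, and the 3 arrays of cbp60h lie highest.

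Under Psm, the order of the means was pad4-1, Col-0, double mutant, triple mutant, and of these neighbours only the last pair differed by the test. Differences were tested with limma in 1 model of the 9 groups that hold more than 1 array (23 arrays), and p-values were adjusted by Benjamini-Hochberg over the 181 genes; an adjusted p under 0.05 counts as called. The triple mutant was below Col-0 by a difference of -2.36 (SE 0.44, adjusted p = 0.000295), which is 5.14-fold at base 2, and only 7 of the 181 genes fell further. This comparison called 34.3% of genes, 24.3% lower and 9.94% higher; of its calls 29% were higher as deposited, 48.5% after quantile normalization and 43.5% after centring each array on its median. The median gene differed by -0.13 here, and by 0.11 after quantile normalization, where UGT76B1 differed by -2.07. After centring each array on 10 basal genes, 28.3% of the calls were higher. The median gene then differed by -0.12 and UGT76B1 by -2.35. Within sets 1, 2 and 3 the differences were -2.60, -2.12 and -2.36, a narrower spread than the levels themselves had.

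Under Psm the triple mutant was also lower than both other mutants. Against the double mutant, the triple mutant differed by -1.79 (SE 0.44, adjusted p = 0.00421), with 30.9% of genes called. Against pad4-1 it differed by -2.42 (SE 0.44, adjusted p = 0.00119), the second largest fall of the 181 genes, with 21.5% called. The double mutant was lower than Col-0 in every set, by -0.44, -0.62 and -0.64 (SD 0.11), yet the difference of -0.57 (95% interval -1.50 to 0.36) did not pass in the limma test (adjusted p = 0.533, with 6.63% of genes called). That interval takes no account of the set and rests on the spread within all 9 groups. Their SD ran from 0.13 in cbp60h to 1.40 in the triple mutant, both at 9 h after hrcC. None of the alternatives other than left-out arrays called the difference (lowest adjusted p = 0.303 in limma). The difference of pad4-1 from Col-0 was 0.06 (95% interval -0.87 to 0.99, adjusted p = 0.972, with 2.76% called), and pad4-1 exceeded the double mutant by 0.63 (95% interval -0.30 to 1.56, adjusted p = 0.689, with 1.1% called).

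At 9 h after hrcC, the order of the means was cbp60h, Col-0, pad4-1, double mutant, triple mutant, and no neighbours in it differed by the test. The triple mutant was below Col-0 by a difference of -1.81 (SE 0.54), just short of a call in the limma fit (adjusted p = 0.0509, with 6.63% of genes called). With the set as a block the same difference was called (adjusted p = 0.00918). The set 1 difference was -2.63 and that of set 2 was -0.98, and the estimate moved to -0.82 without triple mutant replicate 1, or to -2.80 (adjusted p = 0.00746) when replicate 2 was left out.

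The double mutant differed from Col-0 by -1.27 (SE 0.54, unadjusted p = 0.0309, adjusted p = 0.43 in limma) at 9 h after hrcC, the most negative difference among the 181 genes in a comparison that called 0% of them. In that comparison 15 genes had an unadjusted p under 0.05. The set 1 difference was -1.83 and that of set 2 was -0.71, and the fitted difference was -0.54 without double mutant replicate 1 and -1.998 without double mutant replicate 2. For pad4-1 against Col-0 the difference was -0.61 (95% interval -1.75 to 0.53, adjusted p = 0.848), again with 0% of genes called and 10 with an unadjusted p under 0.05. The triple mutant differed from the double mutant by -0.54 (95% interval -1.68 to 0.60, adjusted p = 0.758) and from pad4-1 by -1.20 (95% interval -2.34 to -0.06, adjusted p = 0.528), each with 0.552% of genes called. Between pad4-1 and the double mutant the difference was 0.66 (95% interval -0.48 to 1.80, adjusted p = 0.966), with 0% called and 5 genes at an unadjusted p under 0.05.

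Loss of CBP60h on its own went with no lower UGT76B1 level, and the double mutant lay far below the cbp60h mutant. Against Col-0 the cbp60h mutant differed by 0.81 (95% interval -0.23 to 1.85, adjusted p = 0.345 in limma), with 0.84 in set 1 and 0.79 in set 2; 13.8% of genes were called in this comparison. The double mutant differed from cbp60h by -2.08 (SE 0.50, adjusted p = 0.00429), with 24.9% of genes called and within-set values of -2.68 and -1.49. Without double mutant replicate 1 that difference was -1.35 and no longer called (adjusted p = 0.123). The triple mutant differed from cbp60h by -2.62 (SE 0.50, adjusted p = 0.00108), with 21% called, and by -1.63 (adjusted p = 0.0716) without triple mutant replicate 1. For pad4-1 against cbp60h the difference was -1.42 (SE 0.50, adjusted p = 0.0514, with 18.8% called), and with the set as a block it was -1.48 and called (adjusted p = 0.00796). A mutant of CBP60g alone is not among the arrays.

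At 9 h after hrcC, the arrays of sets 1 and 2 lay further apart in pad4-1 and in the double and triple mutants than in Col-0 and cbp60h. From set 1 to set 2 the level differed by 1.98 in the triple mutant, 1.46 in the double mutant and 1.26 in pad4-1, beside 0.33 in Col-0 and 0.27 in cbp60h. Under Psm the same step was 1.06 in the triple mutant, 0.58 in Col-0, 0.40 in the double mutant and -0.41 in pad4-1. With 1 array per genotype, treatment and set, these steps were not tested.

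Each set and treatment holds 1 array of all genotypes but cbp60h, which gives 6 matched conditions, the arrays at 24 h after hrcC included. The genotype difference was therefore also taken within condition, in a limma fit of the 24 arrays with the condition as a term. The triple mutant was below Col-0 in 6 of 6 conditions, by -0.98 to -2.63, and the fitted difference was -2.12 (SE 0.27, adjusted p = 4.47e-06), 4.36-fold at base 2, with 34.3% of genes called. An exact two-sided sign-flip permutation test of the 6 differences gave p = 0.0312, the smallest that 6 pairs allow, and 0.0547 after adjustment over the 7 comparisons tested in this way. The 6 conditions come from 3 sets, and each set gave a difference after hrcC and a difference after Psm. For genotype differences over all 6 conditions, here and below, both the limma fit and the sign-flip test treat these as independent. Their p-values are therefore too small if the differences of a set go together. The limma fit also takes 1 genotype difference for both strains.

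Over the same conditions the double mutant was below Col-0 in 6 of 6, by -0.44 to -2.30. The fitted difference was -1.09 (SE 0.27, adjusted p = 0.0236 in limma), 2.13-fold at base 2 and the second largest fall of the 181 genes, with 5.52% of genes called. The exact sign-flip permutation test gave p = 0.0312 (0.0547 adjusted). This call did not hold without any 1 of 5 arrays, where the difference lay between -0.89 and -1.08: Col-0 and double mutant replicate 1 and double mutant replicate 2 at 9 h after hrcC, and the Col-0 and double mutant arrays at 24 h after hrcC. Nor did it hold without the set in the model (adjusted p = 0.0763).

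For pad4-1 the matched differences from Col-0 were lower in 4 conditions and higher in 2, from -1.07 to 0.47, and the fitted difference was -0.34 (95% interval -0.92 to 0.23, adjusted p = 0.587 in limma, exact sign-flip p = 0.281), with 2.76% of genes called. It exceeded the double mutant in 6 of 6 conditions, by 0.10 to 1.27. That difference of 0.75 (SE 0.27) was the highest of the 181 genes, but with an unadjusted p of 0.0134 its adjusted p was 0.267 in limma, and the comparison called 0% of genes, with 25 at an unadjusted p under 0.05. The triple mutant lay below pad4-1 in 6 of 6 conditions, by a fitted -1.78 (SE 0.27, adjusted p = 0.000137), with 18.8% called. Against the double mutant it lay lower in 5 of 6 conditions, by a fitted -1.03 (SE 0.27, adjusted p = 0.00779), with 34.8% called. The exact sign-flip test gave p = 0.0312 against pad4-1 (0.0547 adjusted) but 0.0625 against the double mutant (0.0875 adjusted).

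**Figure D2:**
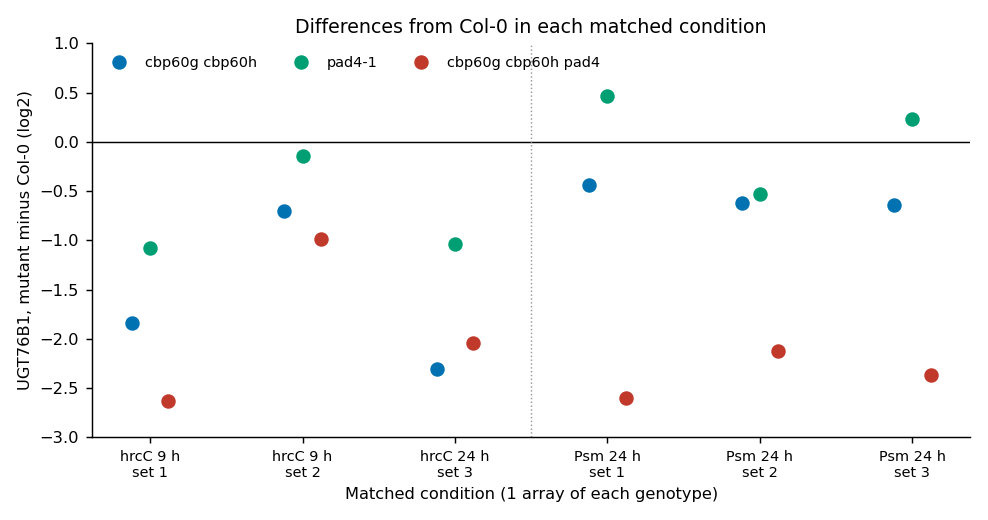
Difference of each mutant from the Col-0 array of the same set and treatment (log2, vertical axis) in the 6 matched conditions (horizontal axis); each point is 1 array minus 1 array. The double and triple mutants lie below 0 in all 6 conditions, and pad4-1 lies above 0 in 2 of them, both after Psm.

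**Figure D3:**
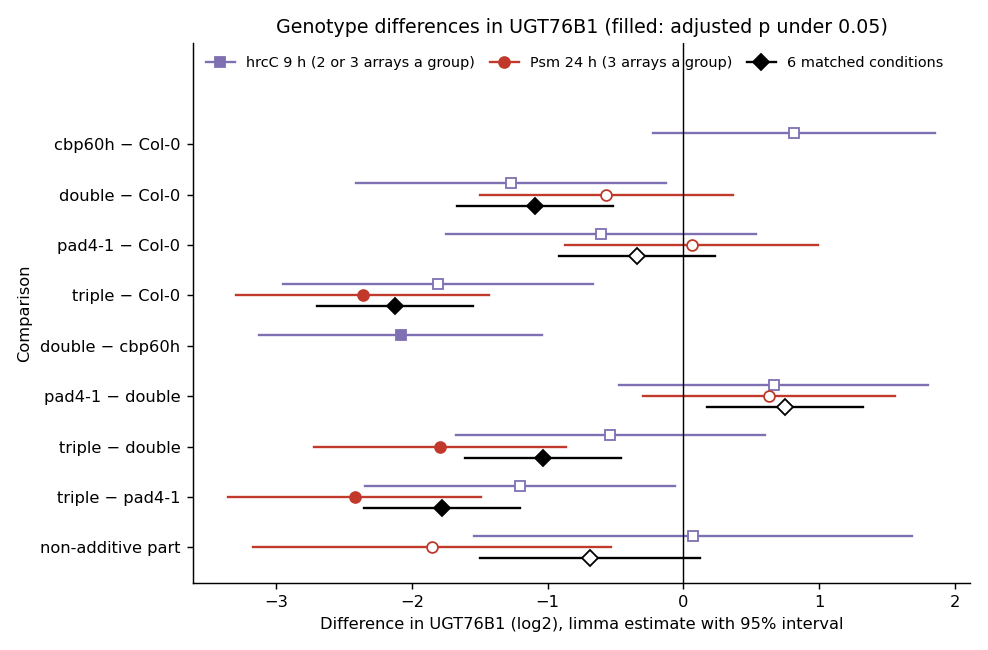
Fitted differences in UGT76B1 (log2, horizontal axis) for each genotype comparison (vertical axis) after hrcC at 9 h, after Psm at 24 h and over the 6 matched conditions; lines are 95% intervals of the limma fit and filled symbols are called. The triple mutant against Col-0 was called after Psm (-2.36) and over the matched conditions (-2.12), and the non-additive part, the triple mutant's departure from the summed effects of the double mutant and pad4-1, was called in none of the fits drawn.

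After Psm, the triple mutant lay below the sum of the separate effects, but the departure did not pass the test in the model of all groups. The double mutant and pad4-1 differed from Col-0 by -0.57 and 0.06, and the triple mutant by -2.36, a departure of -1.85 (SE 0.63, adjusted p = 0.102 in limma, with 5.52% of genes called). With the set as a block it was called (adjusted p = 0.0167), as it was with the compared groups only (adjusted p = 0.0445) and without triple mutant Psm replicate 2 (-2.17, adjusted p = 0.0356). The departures within sets 1, 2 and 3 were -2.63, -0.97 and -1.96. At 9 h after hrcC the departure was 0.07 (95% interval -1.54 to 1.68, adjusted p = 0.994, with 0.552% called), and at 24 h after hrcC the 4 arrays gave 1.29. Over all matched conditions it was -0.69 (95% interval -1.50 to 0.12, adjusted p = 0.347), with 2.21% called.

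In each set, the step of UGT76B1 down from the double to the triple mutant was larger in the Psm arrays than in the hrcC arrays. Strain and time change together in sets 1 and 2, with hrcC at 9 h and Psm at 24 h. Only set 3 had both strains at 24 h. After Psm the triple mutant lay below the double mutant by -2.16, -1.50 and -1.72 in sets 1 to 3, a mean of -1.79 ± 0.34 (SD, n = 3). After hrcC the values were -0.80, -0.28 and 0.26, a mean of -0.27 ± 0.53 (SD, n = 3), and the ranges did not overlap. A genotype by strain term in the matched fit, a test chosen after these values had been seen, gave a difference between strains of -1.52 (SE 0.41, adjusted p = 0.0159 in limma), with 16.6% of genes called. The call did not hold without triple mutant Psm replicate 1 (-1.31), triple mutant hrcC replicate 2 (-1.32) or the arrays of the double mutant (-1.25) or triple mutant (-1.43) at 24 h after hrcC, nor without the set in the model (adjusted p = 0.128).

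The same added fit gave the strain term for the other genotype differences, again with strain and time changing together in sets 1 and 2. The departure from additive effects averaged -1.85 ± 0.83 after Psm and 0.48 ± 0.74 after hrcC (SD, n = 3 each), a difference of -2.33 (SE 0.57, adjusted p = 0.0377 in limma), with 6.63% of genes called. It was no longer called after quantile normalization (adjusted p = 0.0552), after centring on basal genes or without the set in the model (adjusted p = 0.155). Of 24 fits with 1 array left out, 13 kept the call. The call was lost, with differences of -2.11 to -2.53, without Psm replicate 1 of the double mutant, pad4-1 or the triple mutant, Psm replicate 3 of Col-0, pad4-1 or the triple mutant, hrcC replicate 2 of the double or triple mutant at 9 h, or the 24 h hrcC array of Col-0, pad4-1 or the triple mutant. The double mutant's difference from Col-0 averaged -0.57 ± 0.11 after Psm and -1.61 ± 0.82 after hrcC, and the strain term of 1.04 (95% interval 0.19 to 1.90, adjusted p = 0.13, with 4.97% called) did not pass, though it did without Col-0 hrcC replicate 2 (1.45, adjusted p = 0.0384). Nor did that of pad4-1 (0.81, 95% interval -0.05 to 1.67, adjusted p = 0.563, with 1.1% called), that of the triple mutant against Col-0 (-0.47, 95% interval -1.33 to 0.38, adjusted p = 0.496, with 12.2% called) or that of the triple mutant against pad4-1 (-1.28, adjusted p = 0.0615, with 7.18% called), which passed without pad4-1 Psm replicate 2 (-1.61), triple mutant Psm replicate 2 (-1.51) or triple mutant hrcC replicate 1 (-1.57). Between pad4-1 and the double mutant the strain term was -0.24 (95% interval -1.09 to 0.62, adjusted p = 0.912), with 0% called and 19 genes at an unadjusted p under 0.05.

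**Figure D4:**
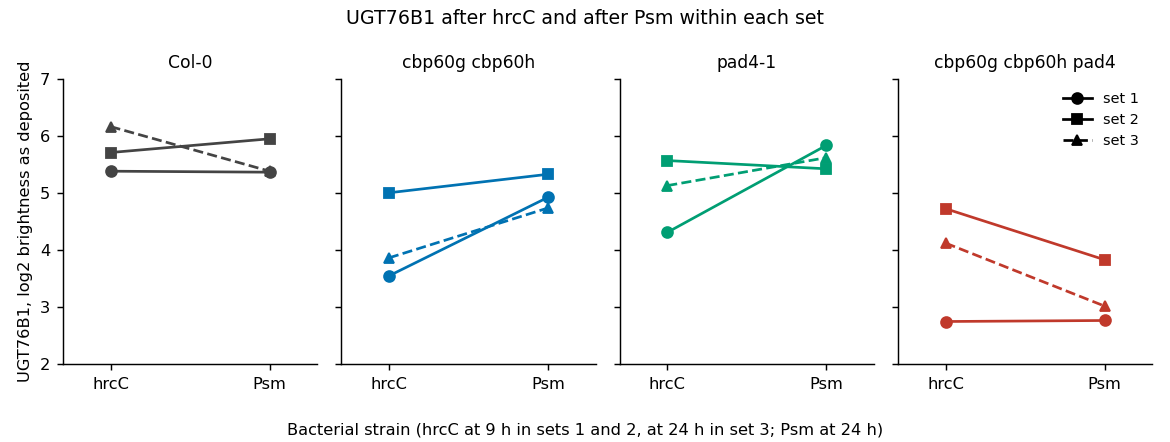
UGT76B1 (log2 brightness, vertical axis) after hrcC and after Psm (horizontal axis) in each genotype (panels); a line joins the arrays of 1 set, dashed where the hrcC array was taken at 24 h. The double mutant was higher after Psm in 3 of 3 sets, and the triple mutant differed by 0.02, -0.90 and -1.10.

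No genotype showed a called difference between Psm at 24 h and hrcC at 9 h, where strain and time change together. Over the alternatives other than left-out arrays, the Col-0 difference ran from -0.36 to 0.29. As deposited, the difference was 0.02 in Col-0 (95% interval -1.02 to 1.06, adjusted p = 0.984 in limma), in a comparison that called 33.1% of genes. It was 0.72 in the double mutant (adjusted p = 0.26, with 42% called), 0.69 in pad4-1 (adjusted p = 0.316, with 32.6% called) and -0.53 in the triple mutant (adjusted p = 0.476, with 26.5% called), where it passed without triple mutant hrcC replicate 1 (-1.52, adjusted p = 0.0487). In the planned fit the mutants' differences from Col-0 did not differ between these treatments by the test: the terms were 0.70 (SE 0.70, adjusted p = 0.729) for the double mutant, 0.67 (adjusted p = 0.97) for pad4-1 and -0.55 (adjusted p = 0.873) for the triple mutant, with 0%, 0.552% and 3.31% of genes called. For the first of these, 23 genes had an unadjusted p under 0.05.

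At 24 h in set 3 the strains could be set side by side at the same time. Psm minus hrcC was 0.87 in the double mutant and 0.49 in pad4-1, against -0.78 in Col-0 and -1.10 in the triple mutant, so the genotypes did not move one way. With the genotype as a term, the mean difference was -0.13 (95% interval -0.95 to 0.69, adjusted p = 0.832 in limma, with 30.4% of genes called). Between 24 h and 9 h after hrcC the difference was 0.20 (95% interval -0.63 to 1.02, adjusted p = 0.822, with 2.21% called); time and set change together there and cannot be told apart.

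The gene whose pattern was most like that of UGT76B1 was AT3G28540, which encodes an AAA-type ATPase. Likeness was measured as Pearson's r over the 13 means by genotype, strain and time, which share arrays and scaling, so it is given with no p. For AT3G28540 it was 0.94, and 0.87 over the 27 arrays, against a median of 0.08 over the other 180 genes. AT3G28540 had its highest mean in cbp60h, from arrays at 5.20, 5.11 and 6.10, and its lowest in the triple mutant under Psm, at 2.67, 2.39 and 2.76. These groups did not overlap with the Col-0 arrays of their own treatment. Its difference between the triple mutant and Col-0 was -2.33 after Psm and -1.28 at 9 h after hrcC, and that between cbp60h and Col-0 was 1.21. This gene and those that follow were picked by the same means, so their differences are a description, with no test.

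**Figure D5:**
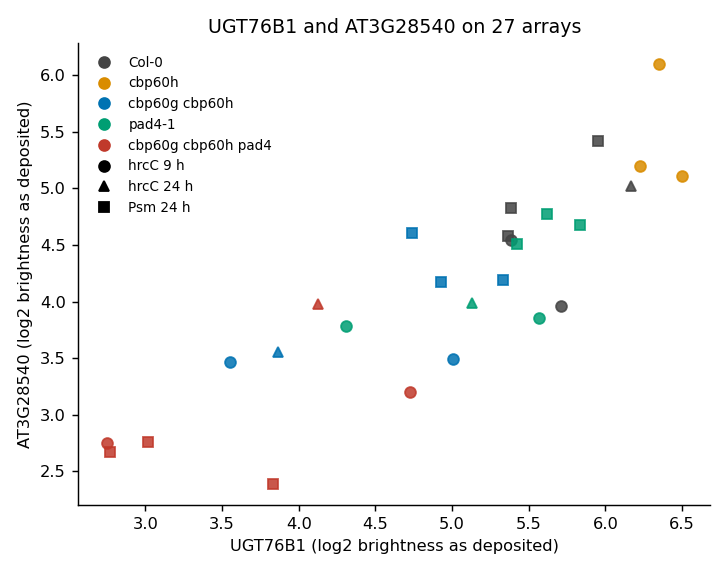
AT3G28540 (vertical axis) against UGT76B1 (horizontal axis), both in log2 brightness, on the 27 arrays; colours give the genotype and symbols the treatment. Both genes were low in the triple mutant under Psm and high in cbp60h (r = 0.87 over the arrays).

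The next genes in likeness were AT1G08050 (r = 0.85), Hsp70-2 (0.82), AT2G20790 (0.75) and SAL2 (0.74). Hsp70-2 encodes a cytosolic heat shock chaperone, and AT1G08050 a zinc finger protein. The differences of the triple mutant from Col-0 under Psm were -1.58 for AT1G08050, -2.40 for Hsp70-2, -1.21 for SAL2 and -0.15 for AT2G20790, and the likeness of AT2G20790 was 0.23 after quantile normalization. As deposited, the most opposite patterns were those of APS3 (r = -0.72), an ATP sulfurylase gene of sulfate assimilation, AT2G36950 (-0.68) and AT1G29950 (-0.68), with differences of 1.44, 0.82 and 0.49 between the triple mutant and Col-0 under Psm. After quantile normalization their r was -0.67, -0.51 and -0.48, at places 176, 165 and 162 of 180.

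Of the salicylic acid genes on the lists used here, few were measured beside UGT76B1. In the list of salicylic acid synthesis, regulation and turnover, UGT76B1 was the 1 measured member of 29, the list for N-hydroxypipecolic acid had 0 of 3, and the response list had 2 of 15, the transcription factor gene WRKY53 and the glutaredoxin gene GRX480. Both response genes fell in the triple mutant under Psm, where 24.3% of all genes were called lower, WRKY53 by a difference of -1.92 (SE 0.27, adjusted p = 1.58e-05) and GRX480 by -1.32 (SE 0.28, adjusted p = 0.00099). At 9 h after hrcC they parted. There the triple mutant differed from Col-0 by -0.26 for WRKY53 (adjusted p = 0.814 in limma) and by -2.27 for GRX480 (adjusted p = 0.000598), with 6.63% of genes called. Over the 6 matched conditions the double mutant's difference from Col-0 was -0.06 for GRX480 (95% interval -0.55 to 0.43, adjusted p = 0.924 in limma) and -0.86 for WRKY53 (95% interval -1.49 to -0.24, adjusted p = 0.104), beside the called -1.09 of UGT76B1. The interval of UGT76B1 (-1.67 to -0.52) overlapped with that of WRKY53 and, narrowly, with that of GRX480. Whether the genes differed from each other was not tested. Under Psm alone the double mutant's difference was called for WRKY53 (-1.61, SE 0.27, adjusted p = 0.000564 in limma). It was not called there for UGT76B1 (-0.57, adjusted p = 0.533) or GRX480 (0.15, adjusted p = 0.882), with 6.63% of genes called. Over the 6 matched conditions GRX480 departed from additive effects by -1.89 (SE 0.33, adjusted p = 0.00268), beside 2.21% of genes called, and the departure of WRKY53 was 0.43 (95% interval -0.45 to 1.31, adjusted p = 0.574).

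The array also names 5 other glycosyltransferase genes of the same enzyme family: UGT74B1, which acts in glucosinolate synthesis, UGT84A3, which acts on hydroxycinnamic acids, IAGLU, which acts on the auxin indole-3-acetic acid, UGT76E12 and UGT85A2. In the triple mutant under Psm, 2 of the 5 rose, 0 fell and 3 did not pass, beside the 9.94% of genes called higher. After quantile normalization (0.67, adjusted p = 0.0108 in limma) and median centring (0.55, adjusted p = 0.0373) UGT85A2 rose as well. Centred on basal genes, UGT85A2 did not pass (0.34, adjusted p = 0.247). UGT84A3 rose by 1.08 (SE 0.23, adjusted p = 0.00109 in limma), from 3.53, 4.00 and 4.10 in Col-0 to 4.70, 5.04 and 5.14, without overlap. After hrcC it did not: the difference was 0.10 at 9 h, and at 24 h the triple mutant read 2.67 and Col-0 4.01. Over the matched conditions its difference of 0.35 was not called (adjusted p = 0.27 in limma, with 34.3% of genes called). Under Psm, UGT74B1 rose by 0.85 (SE 0.19, adjusted p = 0.00129). In cbp60h at 9 h after hrcC, where 8.84% of genes were called higher, UGT74B1 differed from Col-0 by 0.76 (SE 0.21) and UGT76E12 by 1.27 (SE 0.36), each with an adjusted p of 0.0254 in limma. UGT76E12 read 3.02, 2.92 and 4.51 in cbp60h and 1.72 and 2.71 in Col-0, and its call was lost without cbp60h replicate 3 (0.76, adjusted p = 0.0964) or Col-0 replicate 1 (0.78, adjusted p = 0.435). The call of UGT74B1 was lost without Col-0 replicate 1 (0.57, adjusted p = 0.352) or without cbp60h replicate 1, 2 or 3 (adjusted p = 0.0558, 0.0657 and 0.052). Centred on basal genes, neither passed (0.48, adjusted p = 0.114, and 0.999, adjusted p = 0.065). With the compared groups only, 0 genes were called in this comparison, so neither passed there. The difference for IAGLU in the triple mutant under Psm was -0.01, for UGT76E12 0.17 and for UGT85A2 0.34.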

How the data were processed

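The deposited values are log2 brightness per probe and array, with base 2 read from their range (0.66 to 11.4); per the labels' protocols, total RNA was amplified and labelled with 1 dye. How the authors scanned, background-corrected and normalized the arrays: not given in the sources used here. The value 5.38 of UGT76B1 is identical to the last digit on 2 arrays. No signal over background is given, and precision is limited by how many arrays there are.

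The platform annotation named the probes: 181 with 1 gene, 0 with several, 395 unnamed. All 181 names matched the TAIR10.1 gene table, 133 as locus codes and 48 as symbols. Groups followed the labels. Differences were tested with limma 3.58.1 (R 4.3.3, lmFit and eBayes, two-sided, Benjamini-Hochberg over the 181 genes), in a script tested on simulated data, and every adjusted p is from these fits unless an exact test is named. In all, 41 comparisons were fitted, 7 of them added after values were seen. Alternatives were the set as a block, scalings, all probes, no dim genes (below the 25th percentile), robust moderation, compared groups only and left-out arrays. A set is a shared experiment per the labels, so it pairs arrays. Deviations from group means correlated at a median of 0.14 within sets (-0.24 to 0.62) and -0.08 between sets (-0.55 to 0.54). Centring groups of so few arrays on their own mean pushes the values between sets down, so these medians are not independent.

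UGT76B1, the gene lists and the comparisons were chosen with earlier results of these data known. Genes named are UGT76B1, the 5 most and 3 least like it, measured list members and family 1 glycosyltransferases.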

Additional observations from a re-analysis of the deposited data

Results flagged for a closer look

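Genotype differences of UGT76B1 that departed between the strains in the added test were the step from the double to the triple mutant, which was lower after Psm than after hrcC by a difference of -1.52 on the log2 scale, and the departure from additive effects, with a difference of -2.33. Strain and time change together in sets 1 and 2, and in set 3, at 24 h for both strains, the steps from the double to the triple mutant were -1.72 after Psm and 0.26 after hrcC.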

How the results depend on the processing

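Of 672 alternative fits, 598 kept the direction and the side of the threshold. Triple mutant against Col-0 (Psm and matched), against the double mutant and against pad4-1 in the same conditions were called under every alternative run. Stronger calls were the departure from additivity after Psm, -1.85, with the set as a block (replicate block) and with compared groups only. The triple mutant against Col-0 after hrcC was -1.81 with the block, without dim genes and with trended robust moderation, and -1.87 with basal centring. For pad4-1 against cbp60h it was -1.48 with the block and -1.42 with all probes, no dim genes, robust moderation and compared groups only, and the strain term of triple mutant against pad4-1 was -1.28 with all probes. The pairing by set changed no other call in the group model. Without the set in the model, weaker calls were double mutant against Col-0 (matched, -1.09) and the strain terms -1.52 (triple against double) and -2.33 (departure), the latter also with quantile normalization (-2.07) and basal centring (-2.15). Values reversed were the hrcC departure (-0.17, basal centring), Col-0 Psm minus hrcC (-0.36 quantile, -0.19 median centring) and set 3 Psm minus hrcC (0.28, basal centring).

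The cause was not tested for any of these. With 1 array left out, differences from Col-0 lay between -0.044 and 0.25 for pad4-1 under Psm, -1.24 and 0.023 for pad4-1, -1.998 and -0.54 for the double mutant and -2.80 and -0.82 for the triple mutant after hrcC at 9 h, and -1.21 and -0.89 for the double mutant over the matched conditions. Other hrcC ranges were -2.81 to -1.35 (double against cbp60h), -3.61 to -1.63 (triple against cbp60h), -2.05 to -0.79 (pad4-1 against cbp60h), -2.19 to -0.21 (triple against pad4-1), -0.064 to 1.39 (pad4-1 against double), -1.53 to 0.45 (triple against double) and -0.92 to 1.06 (departure), and the Psm departure ranged from -2.17 to -1.63. Psm minus hrcC at 9 h ranged from -0.17 to 0.18 in Col-0, -0.0070 to 1.45 in the double mutant, 0.057 to 1.32 in pad4-1 and -1.52 to 0.46 in the triple mutant, the change in effect from -0.027 to 1.43 (double), 0.037 to 1.297 (pad4-1) and -1.54 to 0.44 (triple), Psm minus hrcC in set 3 from -0.47 to 0.19 and hrcC at 24 h minus 9 h from -0.015 to 0.40. Added strain terms ranged from 0.77 to 1.45 (double against Col-0), 0.59 to 1.21 (pad4-1 against Col-0), -0.76 to -0.071 (triple against Col-0), -0.46 to 0.089 (pad4-1 against double), -1.80 to -1.25 (triple against double), -1.61 to -1.06 (triple against pad4-1) and -2.73 to -2.06 (departure).

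Counts of called genes moved by over 1.5 times in several comparisons: the Psm departure called 10 genes, and 0 with basal centring; cbp60h against Col-0 called 25, and 0 with compared groups only; the triple mutant against Col-0 after hrcC called 12, and 4 with median centring; the double mutant against Col-0 called 12 under Psm, and 6 without dim genes, and 10 over matched conditions, and 17 with quantile normalization. After hrcC the triple mutant called 1 gene against pad4-1, and 13 with compared groups only, and 1 against the double mutant, and 7 with the set as a block. The triple mutant against cbp60h called 38, and 22 with basal centring or 56 with compared groups only, and Psm minus hrcC in set 3 called 55, and 84 with basal centring. Without the set, the strain terms of the triple mutant called 12 genes in place of 22 (against Col-0), 14 in place of 30 (against the double mutant) and 3 in place of 13 (against pad4-1), and the departure 1 in place of 12.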
